A study of Mus musculus with 14 samples.

Results

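The genes described here are 10 hormones and markers of enteroendocrine cells, Chga, Chgb, Gcg, Pyy, Insl5, Sst, Tph1, Cck, Nts and Neurod1, measured in mouse colon. They were taken by name, as every array probe whose RefSeq accession maps to one of these symbols, which gave 13 probes of the 41174 on the array. All 10 genes were among the 15540 genes with a probe that could be tested, 9 of them above background on all 14 arrays. Enteroendocrine cells are scattered, hormone-secreting cells of the gut epithelium that sense the contents of the lumen and store peptides or serotonin in granules. In the mouse colon the L cells make proglucagon (Gcg, the precursor of GLP-1), peptide YY (Pyy) and insulin-like peptide 5 (Insl5), the D cells make somatostatin (Sst), and the enterochromaffin cells make serotonin through tryptophan hydroxylase 1 (Tph1). Chromogranins A and B (Chga, Chgb) are proteins of the secretory granule, and Neurod1 is a basic helix-loop-helix transcription factor of endocrine differentiation.

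All mice were female C57BL/6 on a chow diet, 4 to 6 months old. Flox mice carried GR fl/fl alleles of the glucocorticoid receptor gene Nr3c1 and no Cre, and GR iKO mice carried the same alleles with Villin-cre, which deletes the gene in the epithelium of the small intestine and colon but not in other cells of the gut wall. Mice of each genotype received regular water (Flox ctrl and GR iKO ctrl, 4 mice each) or water with 2.5% dextran sodium sulfate (DSS), a sulfated polysaccharide toxic to the epithelial lining that brings on colitis, over 7 days (Flox DSS and GR iKO DSS, 3 mice each). Colon RNA of each mouse was hybridised to its own 1-colour Agilent array, so the values describe the whole colon wall, in which fewer cells of a type and less RNA per cell cannot be told apart.

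The 14 arrays lay on 4 slides, and each group always held the same position on the slide, so position and group cannot be told apart. The 75th percentile of intensity ran from 262 to 1003, lowest on Flox DSS replicate 4, and 62.6% to 71.3% of probes were above background. Levels are given as log2 intensity relative to that percentile of the same array, which can be compared between arrays for a gene but not between genes. The brightest Nr3c1 probe lay between 1.05 and 1.46 on the 7 Flox arrays and between 0.19 and 0.57 on the 7 GR iKO arrays, with no overlap, at 57.3% of the Flox level on water and 56.1% on DSS. It passed on water (limma adjusted p = 0.00923) and not on DSS (limma adjusted p = 0.0906). Its other tested probes were at 47.6% to 75.7% of the Flox level, some of them with overlap between genotypes, and no Nr3c1 probe passed on DSS. A list of 8 tested pancreas genes varied more between mice of a group than any of the other gene lists. The list held Ins2 and the digestive enzyme genes Cpa1, Cela1, Cela2a, Pnlip, Ctrb1, Cel and Amy2a5. Relative to the mean of the 8 water arrays its mean log2 level ran from -4.69 to 2.78 in Flox ctrl, -4.63 to 3.00 in GR iKO ctrl, 2.37 to 7.94 in Flox DSS and -4.26 to 4.70 in GR iKO DSS. Because pancreatic islets also make Gcg, Sst and Pyy, these values are set beside those genes.

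Short sequence motifs were read in the 250 bases before the RefSeq start of each gene (GRCm38.p6, the upstream start where a gene has several), to show what the promoters of genes that moved in opposite directions hold. Of 32851 mouse promoter windows of this length, 1.55% held the cyclic AMP response element TGACGTCA on either strand, 17.8% its core TGACG, 66.2% the E-box CANNTG that factors of the Neurod1 family bind, 12.4% the letters TATAAA, 6.75% the AP-1 letters TGANTCA and 16.1% the glucocorticoid element core AGAACA. The core TGACG lies inside the full element, so a full match counts for both. Among the 10 genes, the full element was in 2 windows (Chgb and Sst), the core in 6, the E-box in 9, TATAAA in 2 (Gcg and Insl5) and the AP-1 letters in 1 (Nts), and AGAACA was in none. A match in these letters is a description of the sequence and not evidence of binding.

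The windows of Nts, which rose on DSS in both genotypes, of Insl5, which fell in both, and of Chga, which fell in Flox, are printed 5′ to 3′ on the gene's strand, with every match to the first 5 motifs in capitals, together with 30 bases around the element of Sst, which also rose. They lie at chr10:102490419-102490668 on the minus strand (Nts), chr4:103027272-103027521 on the minus strand (Insl5), chr12:102554691-102554940 on the plus strand (Chga) and chr16:23890874-23890903 on the minus strand (Sst).
Nts: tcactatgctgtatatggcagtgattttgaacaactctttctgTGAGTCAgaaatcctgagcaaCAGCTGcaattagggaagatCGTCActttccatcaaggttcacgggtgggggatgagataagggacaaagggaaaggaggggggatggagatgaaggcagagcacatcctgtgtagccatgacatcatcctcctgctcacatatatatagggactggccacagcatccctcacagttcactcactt
Insl5: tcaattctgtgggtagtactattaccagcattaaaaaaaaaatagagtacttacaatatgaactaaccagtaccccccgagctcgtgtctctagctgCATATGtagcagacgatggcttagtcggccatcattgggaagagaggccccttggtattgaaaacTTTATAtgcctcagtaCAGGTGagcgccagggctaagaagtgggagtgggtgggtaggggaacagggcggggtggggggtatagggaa
Chga: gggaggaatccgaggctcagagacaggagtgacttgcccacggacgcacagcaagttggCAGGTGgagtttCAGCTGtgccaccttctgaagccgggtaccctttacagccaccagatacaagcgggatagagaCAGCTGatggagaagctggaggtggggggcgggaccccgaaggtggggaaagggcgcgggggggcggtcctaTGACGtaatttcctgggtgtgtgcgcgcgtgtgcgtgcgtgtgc
Sst: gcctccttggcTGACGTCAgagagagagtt
The element of Sst lay at positions -48 to -41 from the start and that of Chgb at -72 to -65, and the core in Chga lay at -44 to -40.

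The first question was how DSS changed these genes in mice with an intact receptor. In Flox mice 6 of the 10 genes fell (Chga, Chgb, Pyy, Insl5, Tph1 and Neurod1) and 2 rose (Sst and Nts), while Gcg and Cck did not pass the test (limma, adjusted p below 0.05 over all 29523 probes tested). DSS called 25.4% of all tested probes lower and 21.8% higher in this comparison, so calls were common across the array. The median log2 difference of the 10 genes was -1.40, beside -0.03 over all genes tested. In GR iKO mice Insl5 fell and Sst and Nts rose, and the other 7 genes did not pass, beside 19.8% of all probes called lower and 19.1% higher, with a median of -0.35 for the 10 genes.

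**Figure D1:**
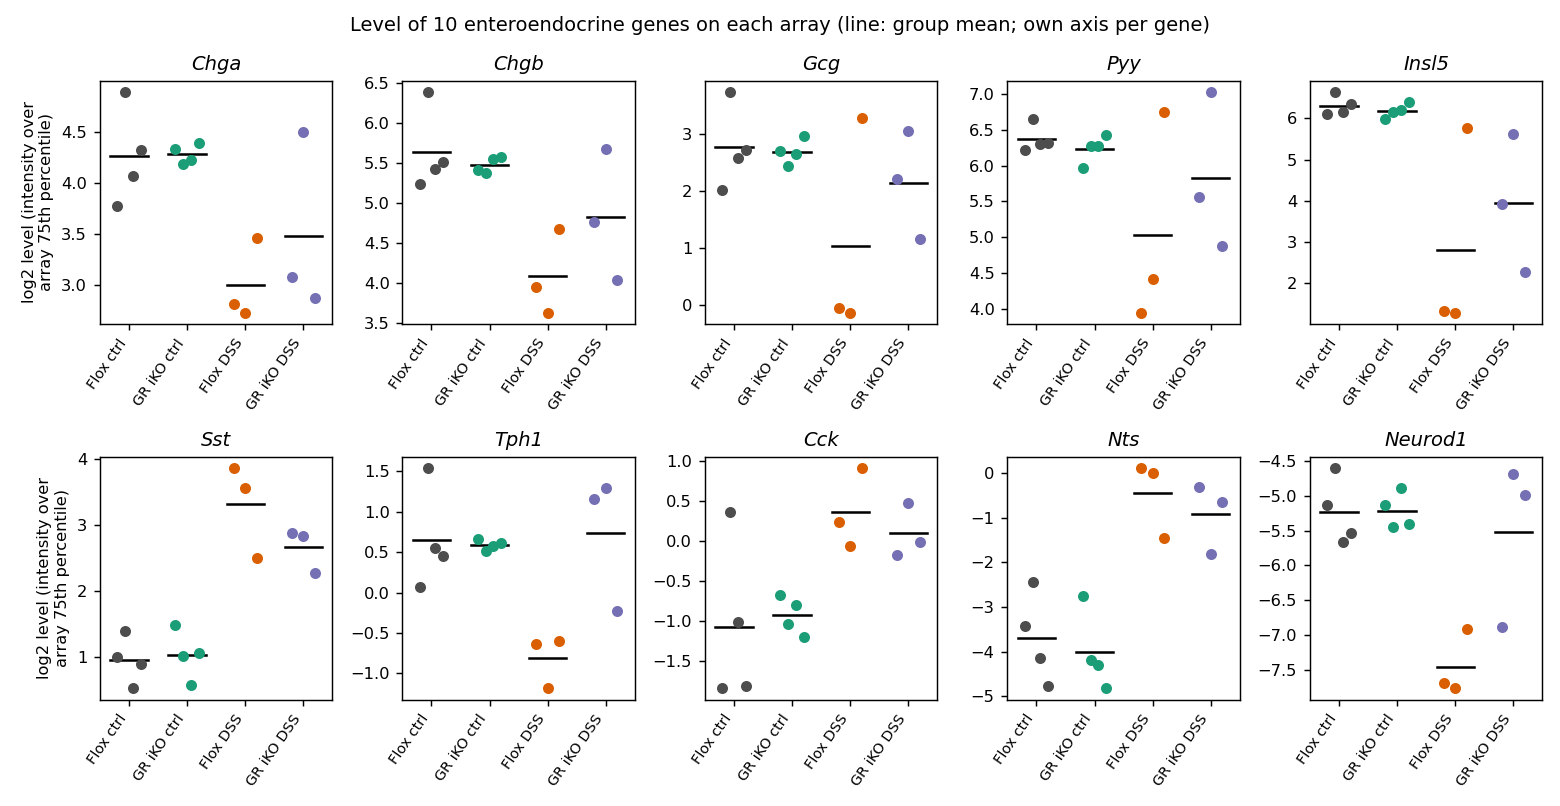
Level of each of the 10 genes on each of the 14 arrays (vertical axis: log2 intensity over the array's 75th percentile, a separate scale for each gene), by group, with the group mean as a line. Sst and Nts sit higher on every DSS array than on every water array, Insl5 sits lower, and Gcg and Pyy of Flox DSS replicate 4 stay within or above the water level.

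Among the L cell hormones, Insl5 changed most. Its level was 6.10, 6.64, 6.14 and 6.35 in Flox ctrl and 1.34, 1.28 and 5.77 in Flox DSS. Every DSS array lay below every water array, but replicates 1 and 2 lay far below the water arrays while replicate 4 lay just under them. The fitted difference was -3.51 (SE 0.82, n = 4 and 3), an 11.4-fold fall (limma adjusted p = 0.00383). In GR iKO the levels were 5.99, 6.15, 6.19 and 6.39 on water and 3.92, 5.62 and 2.27 on DSS, again without overlap, a difference of -2.24 (SE 0.82, limma adjusted p = 0.0457). That call held in only 13 of 28 alternative settings. It did not hold, for example, with slide as a block (-2.26, limma adjusted p = 0.0676) or without GR iKO DSS replicate 4 (-1.41, limma adjusted p = 0.271). Within a slide the DSS array was below the water array of its genotype in all 6 pairs, with differences from -0.57 to -5.35.

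Pyy, which slows gut transit and dampens appetite, followed the same mice. In Flox its brighter probe read 6.22, 6.66, 6.30 and 6.32 on water and 3.94, 4.41 and 6.76 on DSS. Replicate 4 was higher than any water array, so the groups overlapped although the difference of -1.34 (SE 0.51) passed (limma adjusted p = 0.0481), and the second Pyy probe gave -1.90 (SE 0.54, limma adjusted p = 0.0125). With slide as a block the brighter probe did not pass (limma adjusted p = 0.0592). In GR iKO it read 5.97, 6.27, 6.27 and 6.43 on water and 5.56, 7.03 and 4.88 on DSS, a difference of -0.41 (95% interval -1.53 to 0.70).

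Gcg, the proglucagon gene, read 2.02, 3.73, 2.58 and 2.71 in Flox ctrl and -0.05, -0.13 and 3.28 in Flox DSS. Flox DSS replicates 1 and 2 lay below all water arrays and replicate 4 inside their range, and the difference of -1.73 (SE 0.71) did not pass (limma adjusted p = 0.063). That replicate had the highest level of the pancreas list, 7.94, against 4.81 and 2.37 on the other 2 arrays of its group. With the pancreas list as a covariate, chosen after seeing the data, the difference was -2.19 and passed (limma adjusted p = 0.0395). Without Flox DSS replicate 4 Gcg passed as well. That replicate also had the highest Insl5 and Pyy of its group. In Flox the covariate moved Pyy from -1.34 to -1.66 and Insl5 from -3.51 to -4.11. It moved Chga from -1.26 to -1.57, Neurod1 from -2.22 to -2.62, Sst from 2.35 to 2.26 and Nts from 3.25 to 3.35. Why Gcg stayed high on that replicate was not tested. In GR iKO the levels were 2.71, 2.43, 2.64 and 2.97 on water and 2.20, 3.05 and 1.16 on DSS, a difference of -0.55 (95% interval -2.10 to 1.00). The highest of these, replicate 3, had the pancreas list at 4.70, against -4.16 and -4.26 on replicates 1 and 4, and with that list as a covariate the difference was -0.41 (limma adjusted p = 0.671).

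The granins fell in Flox. Chga read 3.77, 4.89, 4.07 and 4.32 in Flox ctrl and 2.81, 2.72 and 3.46 in Flox DSS, with no overlap, a difference of -1.26 (SE 0.39, limma adjusted p = 0.0177). Chgb read 5.23, 6.39, 5.43 and 5.52 against 3.94, 3.62 and 4.68, also without overlap, a difference of -1.56 (SE 0.41, limma adjusted p = 0.00735). In GR iKO the DSS arrays fell on both sides of the water level. Chga read 4.32, 4.18, 4.22 and 4.39 on water and 3.07, 4.50 and 2.87 on DSS (-0.80, SE 0.39, limma adjusted p = 0.122). Chgb read 5.42, 5.37, 5.55 and 5.57 on water and 4.76, 5.68 and 4.03 on DSS (-0.65, SE 0.41, limma adjusted p = 0.226). Replicate 3 of GR iKO DSS had the highest Chga, Chgb, Pyy and Neurod1 of its group.

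Tph1, the rate-limiting enzyme of serotonin synthesis outside the brain, read 0.07, 1.54, 0.56 and 0.45 in Flox ctrl and -0.64, -1.19 and -0.60 in Flox DSS. The groups did not overlap and the difference was -1.46 (SE 0.44, limma adjusted p = 0.0167), with -1.89 (limma adjusted p = 0.00661) for the second probe. In GR iKO it read 0.66, 0.51, 0.58 and 0.62 without DSS and 1.15, 1.30 and -0.23 with it. Among the DSS arrays 2 lay above all water arrays and 1 below, and the difference was 0.15 (95% interval -0.81 to 1.11). On DSS the GR iKO arrays all exceeded the Flox arrays for both Tph1 probes. The second probe was above background on only 1 of 3 Flox DSS arrays, so its differences are limited by background.

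Neurod1 was dim. It read -5.14, -4.60, -5.67 and -5.53 in Flox ctrl, above background on 2 of 4 arrays, and -7.69, -7.77 and -6.92 in Flox DSS, above background on 0 of 3. A bound of 1.11-fold for the fall uses the mean of all 4 water arrays. Only 2 of these 4 were above background, so the bound is not firm. The fitted difference was -2.22 (SE 0.47, limma adjusted p = 0.00201). With normexp background correction the difference was 0.26 (limma adjusted p = 0.285), so neither its direction nor its call held under that correction. In GR iKO it read -5.13, -5.44, -4.90 and -5.41 on water and -6.88, -4.68 and -4.98 on DSS, where it was above background on 2 of 3 arrays, a difference of -0.30 (95% interval -1.31 to 0.72).

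Sst and Nts moved the other way in both genotypes. Sst, which restrains the release of many hormones, read 1.01, 1.39, 0.53 and 0.90 in Flox ctrl and 3.87, 3.57 and 2.50 in Flox DSS, a difference of 2.35 (SE 0.37) or 5.11-fold (limma adjusted p = 0.000333). In GR iKO it read 1.49, 1.02, 0.57 and 1.06 on water and 2.88, 2.84 and 2.28 on DSS, a difference of 1.63 (SE 0.37) or 3.09-fold (limma adjusted p = 0.00478). No DSS array overlapped a water array of its genotype, and within slides the DSS array was higher in all 6 pairs. With scaling to spike-in probes, which moved the median of all probes to -2.45 in Flox, Sst was at -0.0067 there (limma adjusted p = 0.992) and at 0.67 in GR iKO (limma adjusted p = 0.384). The GR iKO DSS arrays with the lowest pancreas list, replicates 1 and 4 at -4.16 and -4.26, had Sst at 2.88 and 2.28, while replicate 3, at 4.70, had Sst at 2.84. In Flox DSS, replicates 1, 2 and 4 had the pancreas list at 4.81, 2.37 and 7.94, and replicate 4 had the lowest Sst. With the pancreas list as a covariate, chosen after seeing the data, the Sst difference was 2.26 in Flox and 1.66 in GR iKO and passed in both (limma adjusted p = 0.00157 and 0.00564). Enteric neurons also make Sst. The neuron list (10 of 10 genes tested rose, among them Elavl4, Tubb3 and Prph) had a mean relative level of 2.97, 2.59 and 2.14 in Flox DSS, and of 1.65, 1.96 and 1.51 in GR iKO DSS, against -0.34 to 0.28 on water, and its part in the Sst result was not tested.

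Nts, neurotensin, a peptide of enteroendocrine N cells, read -3.43, -2.44, -4.14 and -4.76 in Flox ctrl and 0.11, 0.0044 and -1.45 in Flox DSS. All DSS arrays lay above all water arrays, a difference of 3.25 (SE 0.84) or 9.50-fold (limma adjusted p = 0.00707). In GR iKO it read -2.76, -4.18, -4.29 and -4.82 on water and -0.32, -1.81 and -0.64 on DSS, a difference of 3.09 (SE 0.84) or 8.49-fold (limma adjusted p = 0.0118). Without GR iKO DSS replicate 4 that difference was 2.94 and did not pass (limma adjusted p = 0.0566). Cck, cholecystokinin, which triggers gallbladder contraction and satiety, read -1.84, 0.37, -1.01 and -1.81 in Flox ctrl and 0.24, -0.06 and 0.92 in Flox DSS. Flox ctrl replicate 2 lay among the DSS arrays, and the difference of 1.44 (SE 0.64) did not pass (limma adjusted p = 0.0841). In GR iKO all DSS arrays (-0.17, 0.48 and -0.01) lay above all water arrays (-0.67, -1.03, -0.80 and -1.20), a difference of 1.02 (SE 0.64) that did not pass (limma adjusted p = 0.233). The second Cck probe was not above background on any array. Enteric neurons also make Nts, Cck and Chgb. All 10 enteric neuron markers tested rose in both genotypes, and their part in the results of these genes was not tested.

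**Figure D2:**
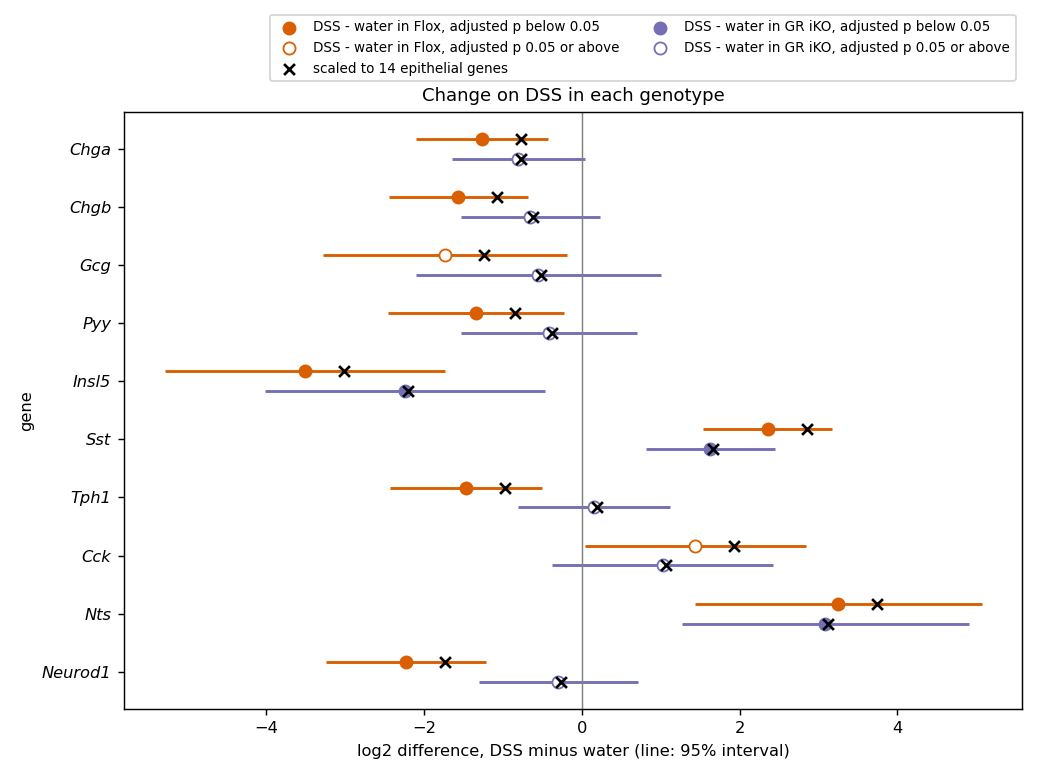
Log2 difference of DSS minus water (horizontal axis) for the 10 genes in Flox (upper line of each pair) and GR iKO (lower line), with 95% intervals. Filled points passed at an adjusted p below 0.05, and crosses give the difference when every array was scaled to 14 epithelial genes. Insl5, Sst and Nts were called in both genotypes, though the Insl5 call in GR iKO held in only 13 of 28 alternative settings. With spike-in scaling Sst and Nts were called in neither genotype. For Chga, Chgb, Gcg, Pyy, Insl5, Tph1 and Neurod1 the Flox cross lies nearer 0 than the point, and for Sst, Cck and Nts it lies farther from 0.

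Some Flox calls did not hold with fewer arrays or with another scaling. Without Flox DSS replicate 1, or without replicate 2, 3 of the 8 calls remained (Insl5, Neurod1 and Sst), while without replicate 4 all 8 remained and Gcg was added. Calls over all probes also became fewer, at 31.1% without replicate 1, 33.1% without replicate 2 and 43.9% without replicate 4. The main fit called 25.4% lower and 21.8% higher. For Chga, Chgb, Tph1 and Nts the differences were -1.17, -1.49, -1.55 and 2.97 without replicate 1 (limma adjusted p from 0.0504 to 0.0966). Without replicate 2 they were -1.13, -1.33, -1.27 and 3.02 (limma adjusted p from 0.053 to 0.105). Pyy was at -0.79 without replicate 1, -1.03 without replicate 2 and -2.20 without replicate 4. Some epithelial markers also fell in Flox. Of 14 genes tested 7 fell (Cdx1 by 2.60, Tspan8 by 1.44 and Epcam by 0.69 on the log2 scale among them) and 2 rose (Krt20 and Elf3). Their median was -0.45, beside 25.4% of all probes lower and 21.8% higher. In GR iKO 2 were lower and 2 higher with a median of 0.02, beside 19.8% and 19.1% of all probes. The mean relative level of the list ran from -0.80 to -0.18 in Flox DSS and from -0.32 to 0.25 in GR iKO DSS, against -0.14 to 0.10 on water. When each array was scaled to this list, a setting chosen after seeing the data, 5 genes passed in Flox. Such scaling shifts all probes of an array alike. It moved the median of all probes in Flox to 0.41, where the main scaling gave -0.09, and 38.6% of all probes passed. Insl5 (-3.02, limma adjusted p = 0.00675) and Neurod1 (-1.73, limma adjusted p = 0.00893) remained lower, and Sst, Nts and Cck (2.85, 3.74 and 1.93) were higher. Chga (-0.77), Chgb (-1.07), Pyy (-0.85) and Tph1 (-0.97) no longer passed, with limma adjusted p from 0.0812 to 0.192. In GR iKO the same 3 genes passed as before, with the median of all probes at 0.01 and 25.4% of them called.

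The second question was whether loss of the receptor changed these genes. On water none of the 10 passed, with differences from -0.32 (Nts) to 0.15 (Cck) and limma adjusted p = 1.00 for each, beside 0.0237% of all probes, 7 in number, that passed. The 95% intervals were narrowest for Sst (-0.41 to 0.57) and Chga (-0.49 to 0.52) and widest for Nts (-1.42 to 0.77). On DSS none passed either, beside 0.0203% of all probes, and the intervals were wide. Tph1 was 1.55 higher in GR iKO (SE 0.57, 95% interval 0.32 to 2.78, limma adjusted p = 0.186). Its second probe, above background on only 1 of 3 Flox DSS arrays, was 1.65 higher. Tph1 passed when 1 shared spread was fitted for water and DSS arrays (limma adjusted p = 0.0279), a fit that called 3903 of all probes where the main one called 6. The count of 6 was 826 without Flox DSS replicate 4 and 732 without GR iKO DSS replicate 3, and from 0 to 11 without any other single array, and none of the 10 genes passed in these fits. Neurod1 was not above background on any Flox DSS array, and the lowest signal above background there left no bound on its difference. Its fitted value did not pass (limma adjusted p = 0.132), passed with 1 shared spread (limma adjusted p = 0.0241) and was at -0.12 with normexp background correction (limma adjusted p = 0.843). The other differences ran from -0.64 (Sst) to 1.14 (Insl5), each with an interval that included 0.

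The difference between the responses to DSS, tested as a genotype by DSS interaction, passed for none of the 10 genes, beside 0% of all probes (limma, smallest adjusted p = 0.06, with 4389 probes at an unadjusted p below 0.05). The estimate for Tph1 was 1.62 (SE 0.63, 95% interval 0.25 to 2.98, limma adjusted p = 0.265). For Neurod1, with no Flox DSS array above background, the fitted value ran from -0.0372 to 3.33 over the alternatives. Without GR iKO DSS replicate 3 the interaction called 49 probes, none of them among these genes. The calls of 6 lower genes in Flox and 1 in GR iKO are thus not shown to differ between genotypes. For Nts the estimate was -0.16 with a 95% interval of -2.73 to 2.41.

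The genes also varied together between mice of a group. Deviations from the group means correlated most for Pyy and Insl5 (Pearson r = 0.98 over 14 arrays), Gcg and Insl5 (0.946), Gcg and Pyy (0.923) and Chga and Chgb (0.942), which is a description over arrays that share slides and scaling. These pairs gave 0.931, 0.852, 0.725 and 0.949 over the 8 water arrays alone. Over the 6 DSS arrays alone they gave 0.983, 0.992, 0.964 and 0.940. Single arrays stood out in both sets. Flox ctrl replicate 2 had the highest Chga, Chgb, Gcg, Pyy and Insl5 of the water arrays. Flox DSS replicate 4 had the highest level of the same genes in its group. How far the correlations rest on these arrays was not tested. Tph1 was nearest to Chgb (0.876), Cck to Chgb (0.718), Neurod1 to Chga (0.566), and Sst and Nts to each other (0.638). Of the 45 pairs 21 had r above 0.5 and 10 were below 0. Over all genes tested, those nearest to Chga were Olfr1321 (0.968), Chgb, Slc18a1 (0.927), Pnmal2 (0.919) and Rgs8 (0.916). Olfr1321 is an odorant receptor gene, and Slc18a1 encodes the vesicular monoamine transporter of enterochromaffin cells.

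**Figure D3:**
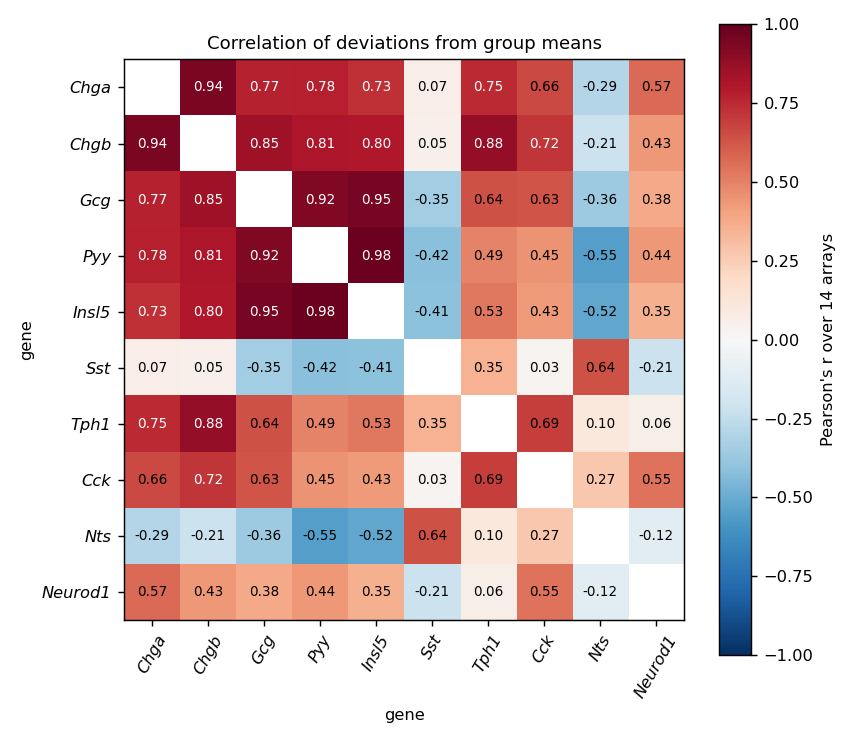
Pearson's r between the 10 genes of the deviations of each array from its group mean, over 14 arrays (colour scale from -1 to 1). Gcg, Pyy and Insl5 form a block (0.923 to 0.98), Chga and Chgb reach 0.942 and lie between 0.73 and 0.85 with those genes, while Sst and Nts have their highest r with each other.

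Some transcription factors that specify enteroendocrine cells also fell. Of 13 tested, 6 fell and 1 rose in Flox (median -0.80), and 4 fell and 1 rose in GR iKO (median -0.62). Across the array, 25.4% of probes were lower and 21.8% higher in Flox, and 19.8% and 19.1% in GR iKO. These shares also stand beside the serotonin, granule and peptide counts below. Pax4 fell by 2.63 on the log2 scale in Flox (limma adjusted p = 0.000488) and by 1.32 in GR iKO (limma adjusted p = 0.0325). Pax6, Insm1 and Rfx6 were not above background on any Flox DSS array, which puts them at least 3.72-fold, 1.77-fold and 2.06-fold lower. Neurog3, the factor that starts endocrine commitment, showed no such difference (0.01 in Flox and -0.19 in GR iKO, limma adjusted p = 0.982 and 0.746), and Etv1 rose in both genotypes (1.73 and 0.96).

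The genes around Tph1 did not share a direction. Of 7 tested, Ddc, Slc6a4 and Maoa fell in both genotypes. Ddc, which makes serotonin from its precursor, had a log2 difference of -2.84 in Flox and -2.83 in GR iKO, and the serotonin transporter Slc6a4 of -3.53 and -2.89. Slc18a1 was at -1.60 in Flox, where it fell (limma adjusted p = 0.00146), and at -0.50 in GR iKO, where it did not pass (limma adjusted p = 0.241). Slc18a2, the monoamine transporter of neurons and mast cells, rose in both (2.39 and 1.25), Maob fell in GR iKO, and Gch1 rose in GR iKO. Of 6 mast cell markers tested, 2 rose in Flox (Mcpt4 and Hdc) and 1 in GR iKO (Hdc), beside 21.8% and 19.1% of all probes. Mcpt1, Mcpt2, Cpa3 and Fcer1a were not called in either genotype. Hdc rose by 4.46 in Flox and 6.31 in GR iKO, where a list of 8 neutrophil genes had medians of 4.35 and 6.26. The cells behind the rise of Hdc were not tested.

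Genes of prohormone processing and the granule rose, where Chga and Chgb fell in Flox. Of 12 tested, 11 rose and none fell in Flox (median 1.46), and 8 rose and none fell in GR iKO (median 0.93). Pcsk2, a prohormone convertase, rose by 2.58 in Flox and 2.00 in GR iKO on the log2 scale, Ptprn by 2.29 and 1.68, and Scg5, the chaperone of that convertase, by 1.98 and 1.53. Pcsk1, the convertase that cuts proglucagon to GLP-1, rose by 1.16 in Flox (limma adjusted p = 0.0377) and was at 0.37 in GR iKO (limma adjusted p = 0.523). Neurons also express many of these genes, and all 10 enteric neuron markers tested rose in both genotypes, with medians of 2.51 in Flox and 1.73 in GR iKO. The smooth muscle list rose in Flox (7 of 8, median 1.37) and in 1 of 8 in GR iKO (Smtn). The part of these lists in the rise of the granule genes was not tested. These rises also depend on the scaling. Spike-in scaling moved the median of all probes to -2.45 in Flox and -0.99 in GR iKO, where the main scaling gave -0.09 and -0.02. In Flox the granule and smooth muscle medians, 1.46 and 1.37, were smaller in size than that move, and the neuron median, 2.51, was close to it. In GR iKO the granule median, 0.93, was close to it. The lists were not tested with spike-in scaling.

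**Figure D4:**
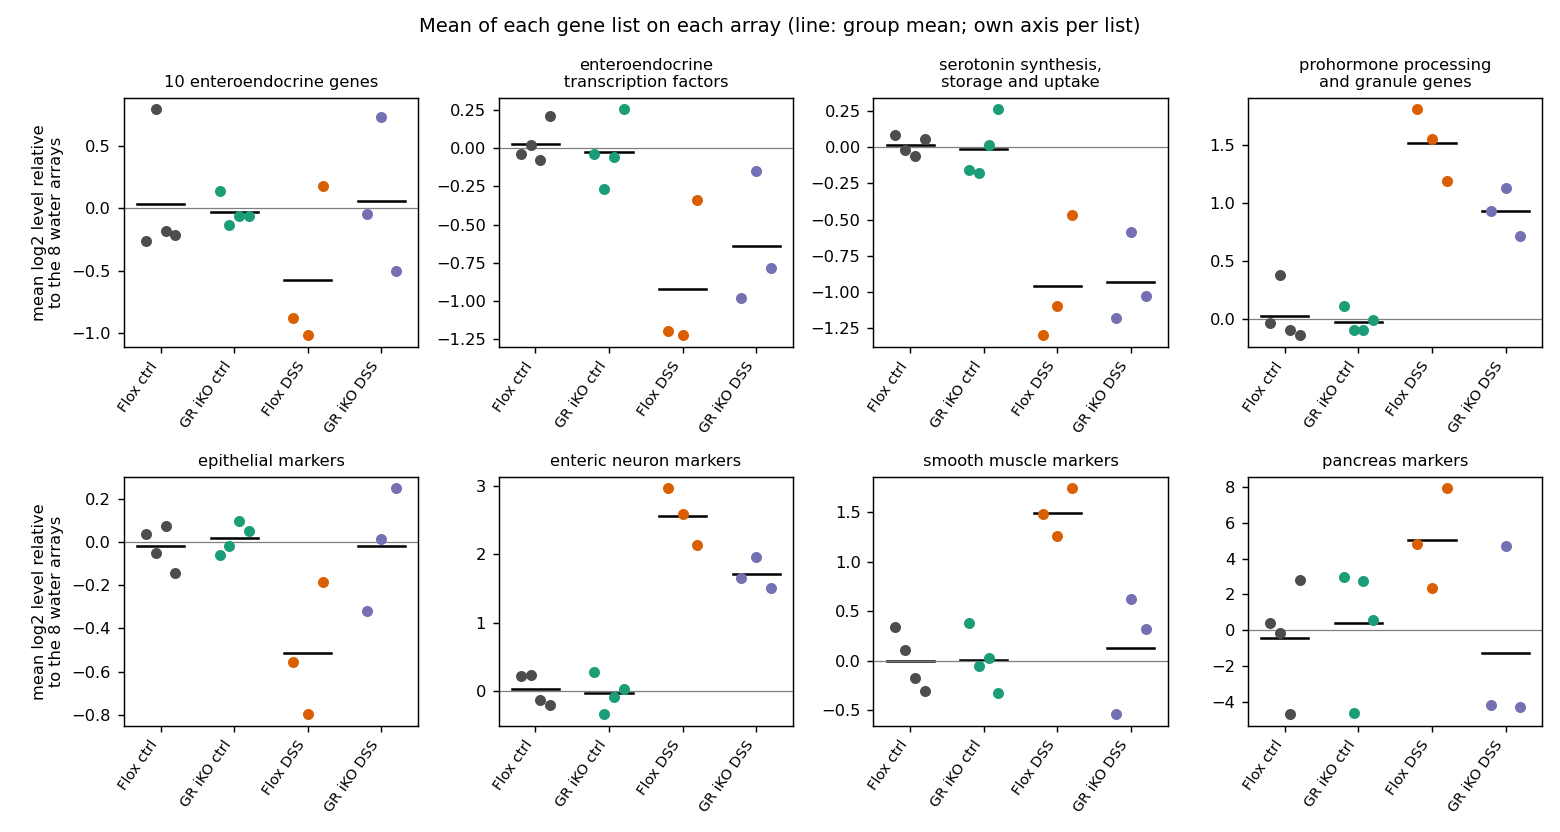
Mean log2 level of 8 gene lists on each array relative to the mean of the 8 water arrays (vertical axis, a separate scale for each list), by group, with the group mean as a line. The granule and enteric neuron lists sit above the water arrays on all 6 DSS arrays, the serotonin list sits below them, and the pancreas list spreads widely within each group. Levels use the main scaling, and the lists were not tested with spike-in scaling.

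Other gut peptides moved in both directions. Of 13 tested, 6 rose and 2 fell in Flox, and 5 rose and none fell in GR iKO. The neuropeptides Tac1 (3.31 and 3.35), Penk (3.76 and 2.99) and Gal (3.41 and 2.39) rose in both genotypes, values being log2 differences in Flox and then GR iKO. Ppy, pancreatic polypeptide, which islets also make, was at -1.90 and -1.02, and ghrelin (Ghrl) at -1.23 and -0.41, and both fell in Flox (limma adjusted p = 0.0185 and 0.0315) without passing in GR iKO.

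Of all probes, 25.4% were lower and 21.8% higher in Flox, and 19.8% and 19.1% in GR iKO, and beside these shares the counts of receptors are not a result about the lists. Of 9 genes tested from a list of nutrient, metabolite and other receptors of enteroendocrine cells, 2 fell and 1 rose in each genotype. Ffar2, a receptor for short-chain fatty acids, fell in both (-1.51 and -1.28), Olfr78 fell in Flox (-2.14, limma adjusted p = 0.00432), Gper1 fell in GR iKO (-0.76, limma adjusted p = 0.0228), and Adgrd1 rose in both. Of 16 hormone receptors tested, 6 rose and 4 fell in Flox, and 4 rose and 4 fell in GR iKO. The cholecystokinin receptor Cckar rose in both (3.84 and 2.07), and the neurotensin receptor Ntsr1 rose in Flox (2.17, limma adjusted p = 0.000336) and was at 0.40 in GR iKO. Npy1r, a receptor for Pyy, was not above background on any Flox DSS array and was at least 4.64-fold lower there. Of 5 enzymes that degrade these hormones, Dpp4, which inactivates GLP-1, fell in both (-1.85 and -1.43), as did Fap. No gene of the lists described here passed between genotypes on DSS or in the interaction.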

How the data were processed

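The authors deposited Agilent Feature Extraction 12.0.0.7 files, 1 per mouse, from 500 ng of colon RNA labelled with Cy3. The deposited processed intensity is background-subtracted and detrended within the array and not scaled between arrays. A deposited table of log2 values with the same quartiles on all arrays (median 6.05) was used as an alternative, and Partek 6.6 is named in the submitters' processing notes. Control spots and outlier flags were left out, 41174 probes were averaged, and 28223 of 29245 RefSeq probes were named through RefSeq (GRCm38.p6). The probe files use mm9, so no gene coordinates are given other than those of the RefSeq promoter windows.

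The log2 intensity minus the array's 75th percentile was fitted over all 14 arrays with limma 3.58.1 (R 4.3.3), with 1 variance for water and 1 for DSS arrays, since DSS arrays varied more (3.39 times in variance). Probes above background on at least 3 arrays (29523) were tested, with Benjamini-Hochberg adjustment over all of them and a threshold of 0.05, and the fit was checked on simulated data. A gene was read by its brightest probe. A bound compares the bright group with the lowest signal above background on the dim arrays. The members and gene lists were chosen with earlier results of these data known. All 10 members were named, with up to 5 genes per list taken by size of change or textbook role, and Etv1, Maob and Gch1 were named after their values were seen. Each array is 1 mouse, and the number of arrays limits the precision. Intensities of the spot median replaced the spot mean in the normexp alternative, because the files used here hold the median. Other alternatives changed the weights, normalization, filter, blocks, probe rule and each array left out.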

Additional observations from a re-analysis of the deposited data

How the results depend on the processing

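In Flox, 8 of the 10 genes were called on DSS, beside 25.4% of all probes lower and 21.8% higher. The count was 7 with slide as a block, 7 with the replicate number as a block and between 7 and 10 under the other planned settings that kept all arrays. It was 5 when arrays were scaled to the epithelial list and 9 with the pancreas list as a covariate, both chosen after seeing the data, and it ran from 3 to 9 when each array was left out in turn. The share of all probes called also moved. It was 48.7% with slide and 48.3% with replicate number as a block, and 35.5% to 85.9% under the other planned settings. With epithelial scaling it was 38.6%, with the pancreas covariate 41.9%, and with an array left out 31.1% to 50.1%. In GR iKO, 3 genes were called, with 5 under array quality weights, 2 with the replicate number as a block, and 1 to 4 when each array was left out. The main fit called 19.8% of all probes lower and 19.1% higher there. These 3 alternatives called 42%, 39.8% and 29.7% to 40.4% of all probes. Without GR iKO DSS replicate 4 the 1 call was Sst. Between genotypes on DSS, 0 genes were called, with 2 under 1 shared spread (Tph1 and Neurod1) and 1 under array quality weights (Neurod1). For the interaction, 0 were called, with 1 under array quality weights (Neurod1) and 3 under spike-in scaling (Pyy, Tph1 and Neurod1). Leaving out arrays gave 0 of the 10 genes for these and for genotype on water.

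Scaling to 8 spike-in probes moved the median of all probes to -2.45 in Flox and -0.99 in GR iKO, where the main scaling gave -0.09 and -0.02. On that scale Sst was at -0.0067 in Flox (limma adjusted p = 0.992), above the median of all probes. Nts was at 0.89 in Flox and 2.12 in GR iKO and passed in neither on that scale. The other gene lists were not tested on that scale, so their rises are shown for the main scaling only. Neurod1 was at 0.2635 in Flox with normexp background correction (limma adjusted p = 0.285). No other called direction turned. Over 28 alternatives in Flox, Insl5 was called in 28, Sst in 27 and Chga in 25, and Pyy in 11. Over 28 in GR iKO, Insl5 was called in 13, Sst in 27 and Nts in 26. Over all probes, 6 were called between genotypes on DSS, with 3903 under 1 shared spread, 4455 under array quality weights, 20 in the deposited value table, 0 with slide as a block and 0 to 826 when each array was left out (826 without Flox DSS replicate 4 and 732 without GR iKO DSS replicate 3). The interaction called 0, with 33, 2956 and 3 under the first 3 of these, 8661 under spike-in scaling and 0 to 49 when each array was left out (49 without GR iKO DSS replicate 3). Same-numbered arrays of the groups shared only a number (correlations of their deviations from -0.08 to 0.31). The causes were not tested. An interaction within only the groups compared is the same fit and was not run. Neurod1 in Flox DSS is limited by signal over background.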
